A study of Homo sapiens with 12 samples.

Results

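Keratins are the intermediate filament proteins of epithelial cells. Here 10 of their genes were followed through 6 cell lines labelled as ovarian cancer (OC). The lineage markers PAX8 and SOX17, given further on, did not bear out that label in OV2008 and C13. The members were chosen by name, 10 of the 60669 gene identifiers in the count table. KRT7, KRT8, KRT18 and KRT19 were taken as simple keratins, and KRT5, KRT6A, KRT13, KRT14, KRT15 and KRT17 as squamous keratins. The lines formed 3 families, each a chemosensitive parent and a resistant derivative. They were HeyA8 with its carboplatin-resistant derivative HeyA8-MDR, SK-OV-3 with its taxol-resistant derivative SK-OV-3-TR, and OV2008 with its cisplatin-resistant derivative C13. Each line gave 1 library after 6 h in 8 µM quinacrine (QC), an antimalarial drug, and 1 after buffer alone (vehicle). That makes 12 polyA RNA libraries, 4 to a family and 3 to each combination of resistance and treatment. Each resistant group therefore pools lines selected with different drugs, every line stands for itself with no repeat culture, and the HeyA8 family grew in DMEM while the other families grew in RPMI-1640, so medium and family cannot be told apart there.

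Keratin filaments are built from pairs of a type I and a type II chain. KRT8 and KRT18 are the pair of simple, single-layered epithelia, joined by KRT7 and KRT19 in ducts, the female reproductive tract and other glandular linings. KRT5 pairs with KRT14 or KRT15 in the basal layer of stratified squamous epithelia, KRT13 marks the upper layers of internal squamous epithelia such as those of the mouth and oesophagus, and KRT6A and KRT17 are the keratins of wounded or activated epidermis. KRT5, KRT6A, KRT7 and KRT8 are type II, and the other members are type I. The type II genes and KRT18 lie together on chromosome 12 and the other type I genes on chromosome 17.

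The main result was a split by family. All 4 libraries of the OV2008 family were above the 8 others for 9 of the 10 keratins and below them for KRT7, so that OV2008 and C13 carried the squamous set beside a KRT8, KRT18 and KRT19 set without much KRT7. The other 4 lines carried KRT7, KRT8 and KRT18, with KRT19 at 51.4 to 169 CPM (counts scaled to library size) in the SK-OV-3 family and under 1 CPM in the HeyA8 family, and little or no squamous keratin apart from KRT5 at 49.4 and 25.6 CPM in SK-OV-3-TR. Over all 18720 genes tested, 11% were above and 8.41% below the other 8 libraries in this way. KRT5, KRT6A, KRT13, KRT14 and KRT17 had enough counts to be tested only through the OV2008 family, so the count of 9 is a description.

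Of the 10 members, 2 had a promoter in the RefSeq sequence table, the squamous KRT5 and the simple KRT8, and they are shown because both stood highest in the OV2008 family while only KRT5 was at 0 in most other libraries. The 250 bases before each start are given 5′ to 3′ on the gene's own strand, from GRCh38.p14. KRT5 lies at chr12:52520395-52520644 and KRT8 at chr12:52926470-52926719, both on the minus strand. Capitals mark matches to the 10-base half-site of the p53 family of factors (p53, p63 and p73), a motif picked after the sequences had been read.
KRT5: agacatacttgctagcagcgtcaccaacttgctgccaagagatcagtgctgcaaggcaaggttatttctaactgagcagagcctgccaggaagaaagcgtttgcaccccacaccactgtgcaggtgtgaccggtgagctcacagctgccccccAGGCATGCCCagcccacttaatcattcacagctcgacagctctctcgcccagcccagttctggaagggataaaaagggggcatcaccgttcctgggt
KRT8: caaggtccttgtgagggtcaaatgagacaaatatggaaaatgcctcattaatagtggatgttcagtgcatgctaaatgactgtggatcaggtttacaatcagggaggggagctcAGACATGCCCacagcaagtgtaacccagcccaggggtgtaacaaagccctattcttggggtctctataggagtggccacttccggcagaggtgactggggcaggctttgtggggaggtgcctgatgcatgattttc
The half-site began 97 bases before the listed KRT5 start and 136 bases before the listed KRT8 start. Either gene may have other starts, and whether these lines use the listed ones was not tested. It was held by 1.28% of the 35116 promoters in the table over the same window, both strands searched. TATAAA and GGGCGG, searched in the same way and held by 10.7% and 42.6% of promoters, had no match in either window. These matches describe letters and not binding.

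Levels are CPM, a gene's count divided by the size of its library and scaled between libraries by edgeR's TMM factors, and the libraries held 17782556 to 30585059 counts. A count of 0 allows a level of up to 3 counts, which was 0.0886 to 0.178 CPM according to the library. This limit covers counting error only. The HeyA8 QC library lay part of the way from HeyA8 vehicle to HeyA8-MDR vehicle. Over the 32 genes at least 8-fold higher in HeyA8-MDR it had covered a median of 68.2% of the log2 distance, and 22.9% over the 75 genes at least 8-fold lower. Those genes were chosen from the same vehicle libraries that set the distance, and no such value is given for the other families. The position is therefore a description. The tests on vehicle libraries do not use the HeyA8 QC library, and in the QC tests 0 members passed with HeyA8 and 0 without it. Every HeyA8 value or ratio under QC given here rests on that library.

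**Figure D1:**
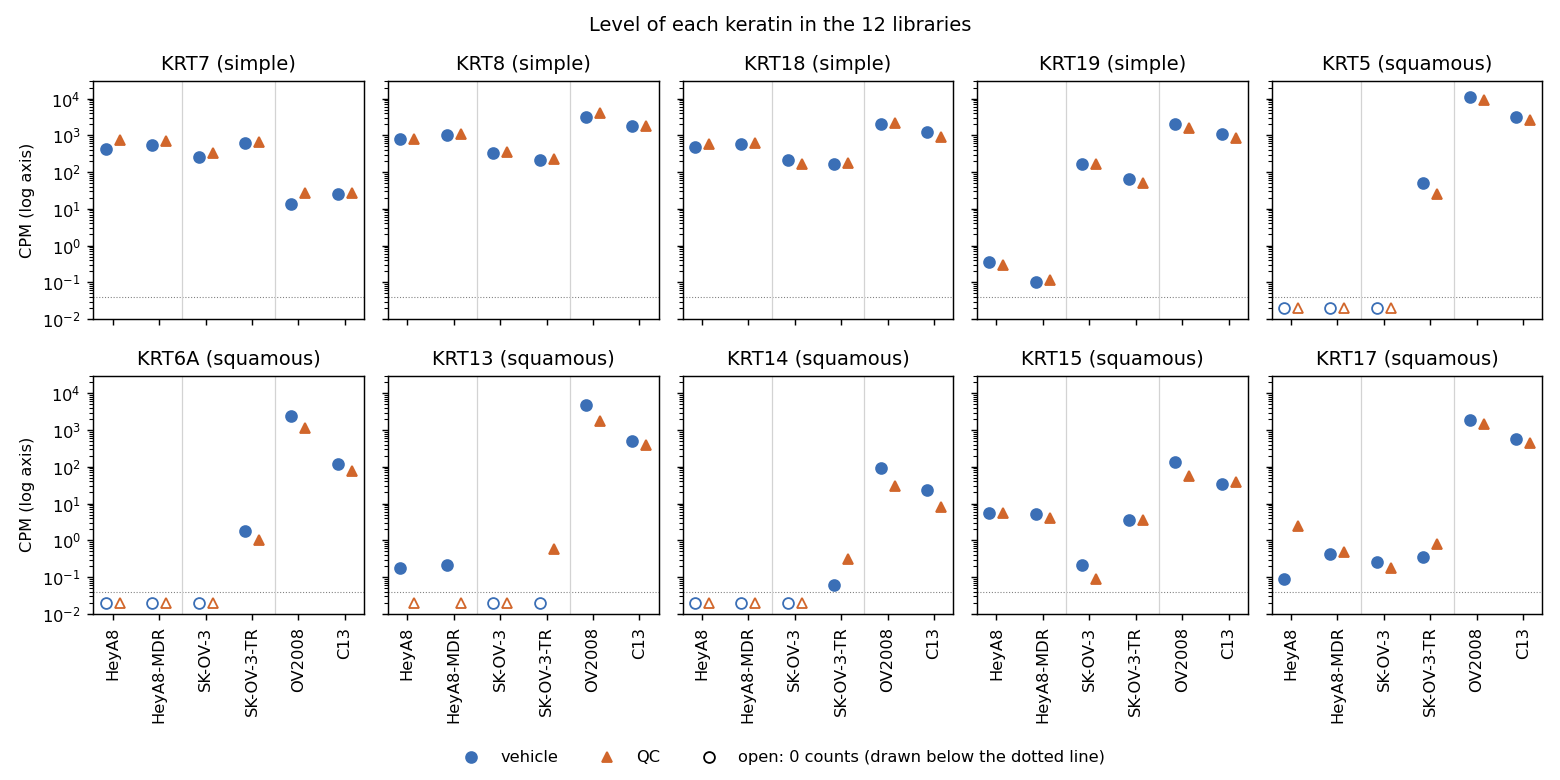
Level of each keratin in CPM on a log axis in the 12 libraries, with circles for vehicle, triangles for QC and open symbols below the dotted line for libraries with 0 counts. Grey lines separate the HeyA8, SK-OV-3 and OV2008 families. KRT8 and KRT18 are high in all 12 libraries, KRT7 is low only in the OV2008 family, and the squamous keratins reach 7.95 to 11213 CPM there.

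KRT8, the type II chain of the simple pair, was present in every library. In the HeyA8 family it measured 813 CPM in HeyA8 vehicle, 815 in HeyA8 QC, 1003 in HeyA8-MDR vehicle and 1056 in HeyA8-MDR QC. In the SK-OV-3 family the level was 325, 352, 211 and 233 CPM in the same order of line and treatment. In the OV2008 family it was 3154, 3961, 1828 and 1837 CPM. The families did not overlap, and the order of lines was OV2008, C13, HeyA8-MDR, HeyA8, SK-OV-3 and SK-OV-3-TR, in which no line's 2 libraries overlapped the next line's.

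KRT18, its type I partner, followed the same order of families. The HeyA8 family held 479, 591, 569.8 and 621 CPM, the SK-OV-3 family 211, 161, 167 and 173 CPM, and the OV2008 family 2075, 2104, 1236 and 922 CPM. HeyA8 and HeyA8-MDR overlapped, as did SK-OV-3 and SK-OV-3-TR. Per kilobase of canonical transcript, KRT8 stood at 0.998 to 1.73 times the level of KRT18 in the 12 libraries. Ranked by CPM per kilobase among tested genes with a known length, both stood at percentiles of 97.7 to 99.9 in every library.

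KRT19, the shortest keratin, which lacks the tail domain, was the simple keratin with the widest range. The HeyA8 family had 0.355, 0.292, 0.104 and 0.118 CPM, from 2 to 8 counts a library. In the SK-OV-3 family it was 169, 166, 62.8 and 51.4 CPM, and in the OV2008 family 2009, 1628, 1090.1 and 835 CPM. Each family was clear of the next, and the lowest OV2008 family library was 4.94 times the highest SK-OV-3 family library.

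KRT7, a type II keratin of glandular epithelia, was the only member that was lowest in the OV2008 family. It measured 415, 731, 553 and 704 CPM in the HeyA8 family and 259, 327, 625 and 675 CPM in the SK-OV-3 family, so those families overlapped. In the OV2008 family it was 13.8, 26.9, 25.2 and 26.1 CPM. KRT7 made up 24.3% to 58.9% of the summed simple keratin level (CPM per kilobase) outside the OV2008 family and 0.182% to 0.699% within it.

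KRT5, the basal type II keratin, was the most abundant of the 10 in OV2008 and C13 per kilobase. Its level was 11213 CPM in OV2008 vehicle, 8919 in OV2008 QC, 3059.5 in C13 vehicle and 2550.1 in C13 QC. It had 0 counts in all HeyA8, HeyA8-MDR and SK-OV-3 libraries. SK-OV-3-TR was the exception outside the OV2008 family, with 49.4 CPM in vehicle and 25.6 in QC, from 1672 and 483 counts. The lowest OV2008 family library was 51.6 times the higher of these.

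KRT6A, the type II keratin of activated epidermis, had the same pattern. It measured 2485 and 1119 CPM in OV2008 vehicle and QC, then 120.0 and 74.8 CPM in C13. SK-OV-3-TR held 60 and 19 counts, which is 1.77 and 1.01 CPM, and the other 6 libraries held 0 counts. In SK-OV-3-TR there were 3.59 KRT6A counts per 100 KRT5 counts in vehicle and 3.93 in QC, against 3.92 and 2.93 in C13 and 22.2 and 12.6 in OV2008. KRT13, at 16.0 and 15.1 counts per 100 KRT5 counts in C13 and 41.9 and 20.3 in OV2008, was at 0 counts in SK-OV-3-TR vehicle and at 11 in SK-OV-3-TR QC, or 2.28 per 100. KRT6A thus stood to KRT5 in SK-OV-3-TR about as in C13, while KRT13 was lower against KRT5 than in either OV2008 family line.

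KRT13, the type I keratin of internal squamous epithelia, reached 4693 CPM in OV2008 vehicle, 1809 in OV2008 QC, 490.0 in C13 vehicle and 385 in C13 QC. Elsewhere it had at most 11 counts (0.583 CPM). This was the widest gap of the set, 660 times between the lowest OV2008 family library and the highest other library.

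KRT17, the other keratin of activated epidermis, measured 1859, 1463, 576 and 435 CPM in the OV2008 family. The other libraries held 2 to 68 counts, the highest being HeyA8 QC at 2.49 CPM beside 0.0886 CPM (2 counts) in HeyA8 vehicle. KRT14, the usual partner of KRT5, was sparse even in the OV2008 family, at 94.2, 29.9, 24.0 and 7.95 CPM, and had 0 to 6 counts elsewhere. As a share of the summed CPM per kilobase of the 10 keratins, KRT13 took 18.4% in OV2008 vehicle, KRT17 8.24% and KRT14 0.387%. In C13 vehicle the shares were 5.93%, 7.89% and 0.304%.

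KRT15, a basal type I keratin, was the squamous member found in the most libraries outside the OV2008 family, with at least 10 counts in 6 of 8. It measured 136, 55.5, 34.5 and 38.1 CPM in that family, 5.58, 5.63, 5.30 and 4.03 CPM in the HeyA8 family, and 3.51 and 3.55 CPM in SK-OV-3-TR. SK-OV-3 had 5 counts in vehicle and 2 in QC. The OV2008 family was above the rest by 6.13 times between its lowest and the highest other library.

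**Figure D2:**
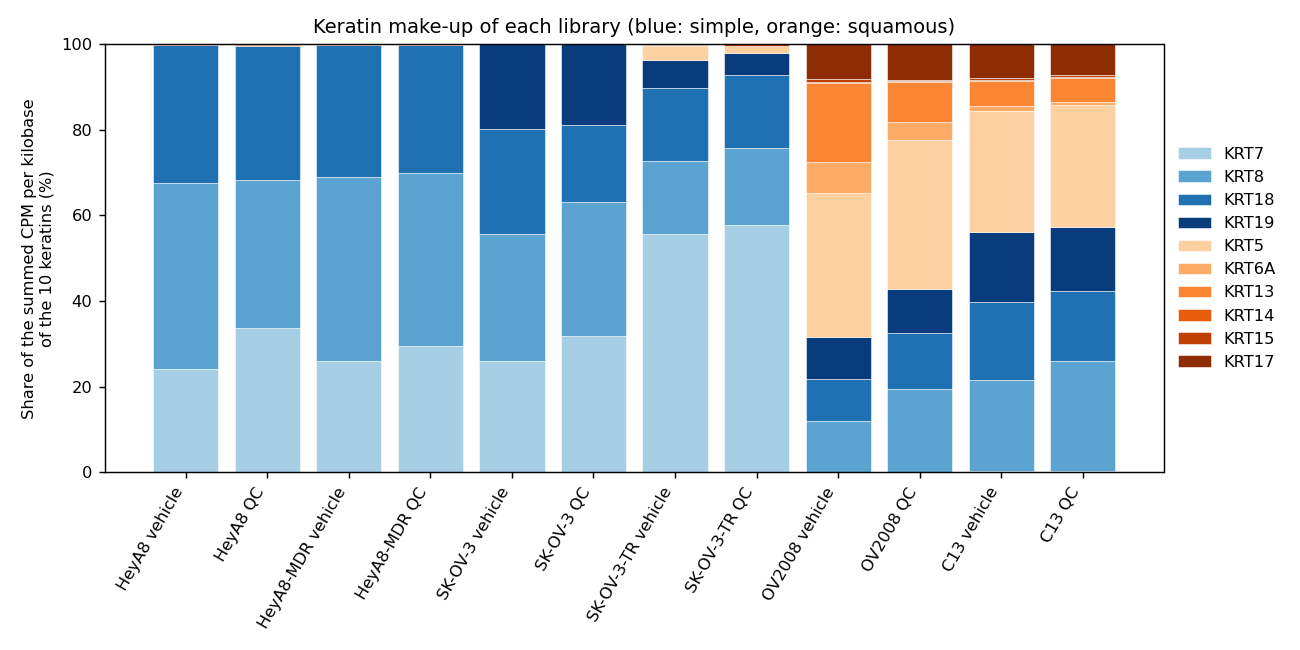
Share of each keratin in the summed CPM per kilobase of the 10 members in each library, in percent, with simple keratins in blue and squamous keratins in orange. KRT7, KRT8 and KRT18 fill the HeyA8 family bars, KRT19 enters in the SK-OV-3 family, and KRT5 takes 28.4% to 34.8% of the OV2008 family bars.

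The edgeR quasi-likelihood F test across the 6 vehicle libraries asked whether a member differed between the 3 families. Both lines of a family share an origin, as parent and derivative. The p-values therefore measure only the spread between a parent and its derivative, not between lines of separate origin. Here 10 of 10 members passed at an adjusted p under 0.05 (Benjamini-Hochberg over 18720 genes), against 23.1% of all genes tested, with adjusted p from 0.00155 for KRT17 to 0.0308 for KRT15. All 10 had passed the filter on low counts, but KRT14 had at least 10 counts in none of the 8 libraries outside the OV2008 family, KRT13 in 1, and KRT5 and KRT6A in 2. KRT17 had them in 3, of which SK-OV-3-TR vehicle, at 12 counts, fell short of the filter once scaled for depth. In the vehicle libraries outside that family KRT17 held only 2 to 12 counts. These members, KRT17 included, passed the filter through the OV2008 family, so their count is no support by itself. With the 6 QC libraries in place of the vehicle libraries the count was again 10.

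Between pairs of families in the same fit, 8 of 10 members were called between the OV2008 and HeyA8 families (10.5% of all genes), 9 between the OV2008 and SK-OV-3 families (15.9%), and 2 between the SK-OV-3 and HeyA8 families (11%). The counts of 8 and 9 hold members that passed the filter through the OV2008 family (KRT6A, KRT13, KRT14 and KRT17, with KRT5 in the 8). Those counts are therefore a description too. KRT7 was lower in the OV2008 family by a log2 fold change of -4.66 (SE 0.5995) against the HeyA8 family and -4.55 (SE 0.596) against the SK-OV-3 family, with adjusted p of 0.00667 and 0.00850 from edgeR's quasi-likelihood test. KRT8 was higher in the OV2008 than in the SK-OV-3 family by 3.19 (SE 0.437, adjusted p = 0.00952, edgeR) and lower in the SK-OV-3 than in the HeyA8 family by -1.76 (SE 0.414, adjusted p = 0.0405, edgeR). For KRT8 between the OV2008 and HeyA8 families the estimate was 1.43 (SE 0.410) and missed the threshold at an adjusted p of 0.0701 (edgeR). KRT18 was higher in the OV2008 family by 1.63 (SE 0.381, adjusted p = 0.0405, edgeR) against the HeyA8 family and by 3.10 (SE 0.403, adjusted p = 0.00829, edgeR) against the SK-OV-3 family. KRT19 was higher in the OV2008 than in the SK-OV-3 family by 3.72 (SE 0.659, adjusted p = 0.0171, edgeR). KRT7 between the SK-OV-3 and HeyA8 families had an estimate of -0.12 (SE 0.514, adjusted p = 0.905, edgeR), whose sign changed with the scaling. No fitted fold is given for the squamous members, whose comparison groups were at or near 0 counts.

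The balance of squamous to simple keratins was highest in the OV2008 family, and it differed widely within the SK-OV-3 family. The summed squamous level was 2.17 times the summed simple level in OV2008 vehicle and 1.34 times in OV2008 QC, both in CPM per kilobase. In C13 it was 0.785 and 0.744 times. On the log2 scale this is 1.12, 0.42, -0.35 and -0.43 in the OV2008 family, against -8.26, -8.07, -8.55 and -9.10 in the HeyA8 family. SK-OV-3 had the lowest balance, -11.06 and -11.84, from 11 and 6 squamous counts in all, and SK-OV-3-TR stood between, at -4.73 and -5.55. KRT5 accounted for 87.7% and 76.2% of the squamous level in SK-OV-3-TR. The 10 keratins together took 2.64% and 2.08% of all counts in OV2008, 0.853% and 0.796% in C13, and 0.107% to 0.197% in the other 8 libraries.

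The type II to type I balance varied less. The summed type II level was 1.04 to 1.42 times the type I level in the OV2008 family, 2.08 to 2.32 times in the HeyA8 family, and 1.26 to 3.43 times in the SK-OV-3 family. SK-OV-3-TR was highest, at 3.17 and 3.43, and it was also the library pair in which KRT7 made up the largest share of the simple keratins.

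**Figure D3:**
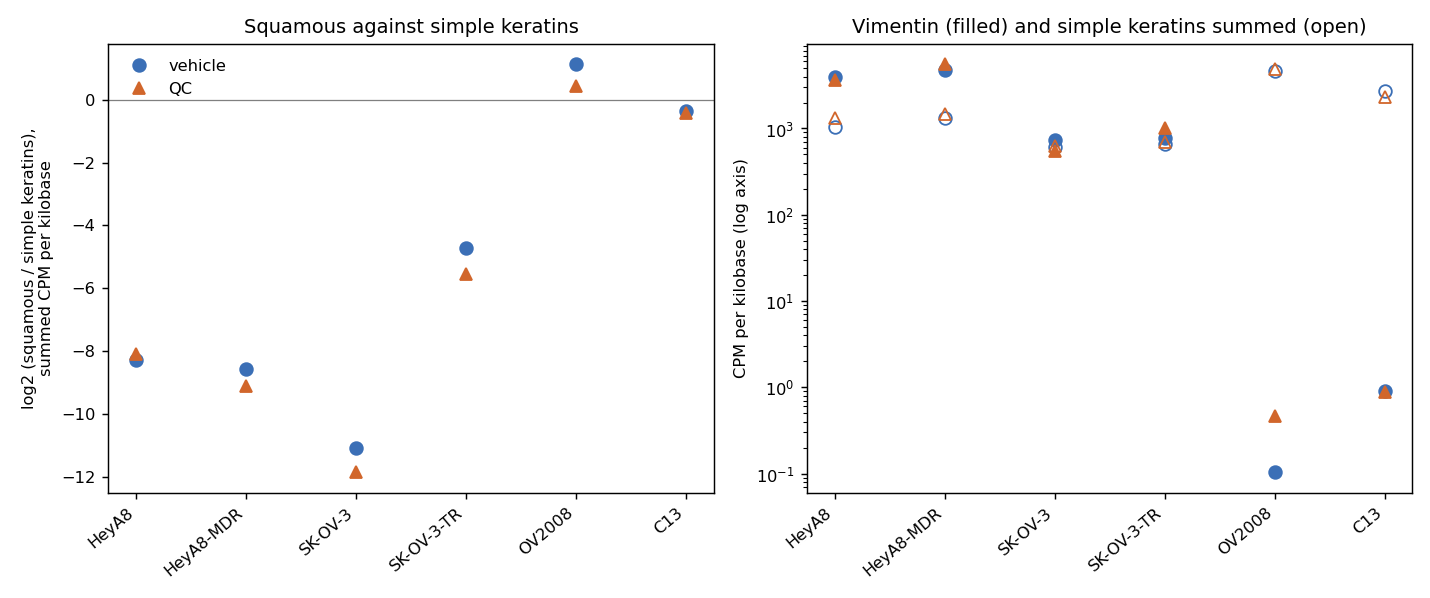
Left, log2 ratio of the summed squamous to the summed simple keratin level (CPM per kilobase) by cell line, circles for vehicle and triangles for QC. Right, level of vimentin (filled) and of the 4 simple keratins summed (open) in CPM per kilobase on a log axis. The ratio runs from -11.84 in SK-OV-3 QC to 1.12 in OV2008 vehicle, and vimentin is under 1 CPM per kilobase in the OV2008 family.

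Resistant derivatives were compared with their parents within families, on the vehicle libraries. No member passed the test (0 of 10, against 0% of all genes, edgeR quasi-likelihood), and at an unadjusted p under 0.05 there were 3 members, KRT7, KRT13 and KRT19, against 3.71% of all genes. KRT13 rests on the OV2008 family, with 83797 counts in OV2008, 14720 in C13 and at most 4 in the other vehicle libraries. DESeq2 also called 0 members. KRT7 was higher in the resistant line in 3 of 3 families, as were 13.1% of all genes. The ratio of its CPM was 1.33 in the HeyA8 family, 2.41 in the SK-OV-3 family and 1.82 in the OV2008 family (log2 fold change 0.85, SE 0.298, adjusted p = 0.994, edgeR). KRT19 was lower in the resistant line in 3 of 3 families, as were 11.5% of all genes, with an estimate of -1.23 (SE 0.307, adjusted p = 0.994, edgeR). Of those, HeyA8 and HeyA8-MDR had only 8 and 2 counts, and the ratio was 0.371 in the SK-OV-3 family and 0.542 in the OV2008 family. In the QC libraries KRT7 was not higher in all resistant lines, with a ratio of 0.964 in the HeyA8 family and 0.971 in the OV2008 family.

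The squamous keratins differed in opposite directions in 2 of the families. In the OV2008 family all 6 were lower in C13 than in OV2008, in vehicle and in QC alike. The ratio of C13 to OV2008 in vehicle was 0.273 for KRT5, 0.0483 for KRT6A, 0.104 for KRT13, 0.255 for KRT14, 0.255 for KRT15 and 0.310 for KRT17. The simple keratins KRT8, KRT18 and KRT19 were at 0.580, 0.596 and 0.542, and KRT7 at 1.82. In the SK-OV-3 family the direction was the opposite for KRT5, KRT6A and KRT15, which were higher in SK-OV-3-TR. Against the level that 3 counts give in SK-OV-3 vehicle, KRT5 was at least 394-fold and KRT6A at least 14.1-fold higher in SK-OV-3-TR vehicle, and KRT15 was 16.8-fold higher. These are differences between 2 lines with 1 vehicle library each, and the difference between families was not tested.

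QC against vehicle asked whether 6 h of the drug changed the keratins. No member passed in sensitive lines, in resistant lines, in the difference between them, or over all 6 lines (0 of 10 in each, against 0%, 0%, 0% and 0% of all genes, edgeR quasi-likelihood with the cell line as a block). At an unadjusted p under 0.05 there were 4, 1, 0 and 4 members, against 6.59%, 6.03%, 1.16% and 15.2% of all genes. In sensitive lines these were KRT6A, KRT7, KRT14 and KRT15, of which KRT6A and KRT14 had 0 counts in HeyA8 and SK-OV-3 and rest on OV2008 alone. Over 6 lines they were KRT5, KRT6A, KRT7 and KRT14, and all but KRT7 had 0 counts in HeyA8, HeyA8-MDR and SK-OV-3. On counts simulated for these comparisons, the test recovered 54.8%, 43.3%, 6.73% and 83.7% of 2-fold changes. These were set in genes with ample mean counts, with the same fold in every line changed. The recovery does not cover the squamous keratins, which were at or near 0 counts in many lines, nor responses that vary by line. DESeq2 called 0, 0, 0 and 1 member, KRT6A.

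KRT7 was above vehicle in 6 of 6 lines, and so was KRT8, as were 4.13% of all genes. For KRT7 the QC to vehicle ratio was 1.76 in HeyA8, 1.27 in HeyA8-MDR, 1.26 in SK-OV-3, 1.08 in SK-OV-3-TR, 1.94 in OV2008 and 1.03 in C13. Its log2 fold change was 0.70 (SE 0.189) in sensitive lines and 0.17 (SE 0.186) in resistant lines, with adjusted p of 0.620 and 0.901 from edgeR. The difference, -0.53 (SE 0.265, adjusted p = 0.9998, edgeR), missed the threshold. For KRT8 the ratios were 1.003, 1.05, 1.08, 1.10, 1.26 and 1.01 in the same order, the highest being OV2008, and its estimate over 6 lines was 0.11 (SE 0.111, adjusted p = 0.673, edgeR).

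KRT6A was lower under QC in the 3 lines that had it, with ratios of 0.450 in OV2008, 0.623 in C13 and 0.568 in SK-OV-3-TR. Over all 6 lines its log2 fold change was -0.89 (SE 0.194, adjusted p = 0.149, edgeR), and the call depended on the tool and filter. KRT5 had ratios of 0.795 in OV2008, 0.833 in C13 and 0.519 in SK-OV-3-TR (log2 fold change -0.51, SE 0.205, adjusted p = 0.292, edgeR). KRT14 had ratios of 0.317 in OV2008 and 0.332 in C13 (-1.30, SE 0.446, adjusted p = 0.227, edgeR). KRT13 was at 0.385 in OV2008 and 0.785 in C13, KRT15 at 0.410 and 1.10, and KRT17 at 0.787 and 0.755. In OV2008 all 6 squamous keratins were thus lower under QC and KRT7, KRT8 and KRT18 were higher, KRT18 by a ratio of 1.01 only, while the simple keratin KRT19 was lower at 0.810. None of the 10 members was below vehicle in all 6 lines, against 4.6% of all genes, but 4 of them (KRT5, KRT6A, KRT13 and KRT14) had 0 counts in both libraries of at least 1 line and could not be.

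For the other simple keratins no difference passed. The QC to vehicle ratio of KRT18 ran from 0.746 in C13 to 1.23 in HeyA8 and that of KRT19, in the 4 lines with over 10 counts, from 0.766 in C13 to 0.983 in SK-OV-3. Their estimates over 6 lines were -0.05 (SE 0.129, adjusted p = 0.883) and -0.25 (SE 0.128, adjusted p = 0.382) from edgeR.

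**Figure D4:**
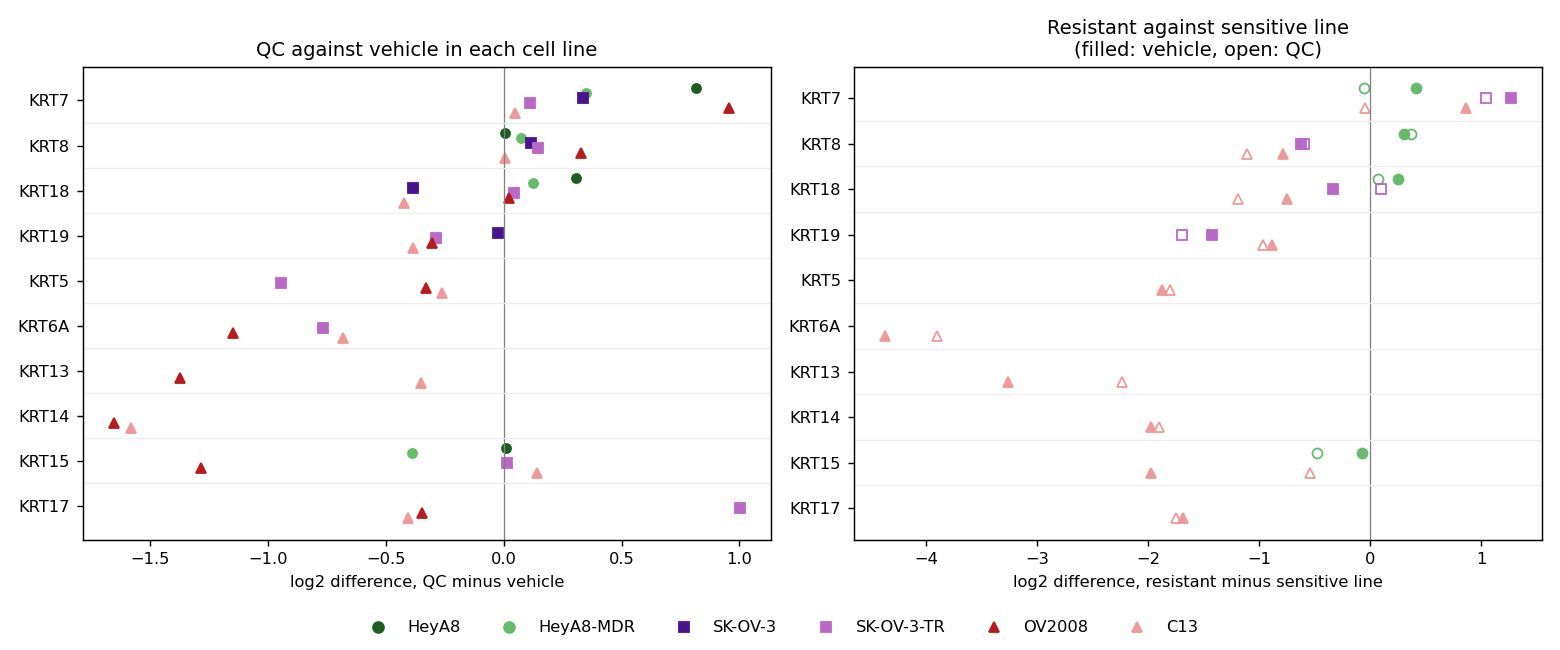
Log2 differences of CPM for each keratin, left for QC minus vehicle in each cell line and right for the resistant minus the sensitive line of each family (filled for vehicle, open for QC), drawn where both libraries had at least 10 counts. KRT7 and KRT8 lie right of 0 in 6 of 6 lines on the left, from 0.00 to 0.95, and all squamous keratins of the OV2008 family lie left of 0 on the right.

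Of the other 45 keratin genes in the table, 25 had 0 counts in all HeyA8 family libraries, 31 in all SK-OV-3 family libraries and 13 in all OV2008 family libraries. The filter was passed by 11, and 6 differed between families, against 23.1% of all genes, led by KRT4 and KRT79, each of which passed the filter through 1 family. KRT4, the type II partner of KRT13 in internal squamous epithelia, measured 213 and 14.3 CPM in OV2008 vehicle and QC and 433 and 201 CPM in C13, and at most 12 counts elsewhere. KRT79 had 77 to 196 counts in the HeyA8 family and 0 to 2 in the others. For QC over 6 lines 0 of the 11 passed (edgeR), with 3 at an unadjusted p under 0.05, against 15.2% of all genes. The smallest p belonged to KRT80, with 452 CPM in OV2008 vehicle and 1062 in OV2008 QC and a log2 fold change of 0.69 over the lines (SE 0.205, adjusted p = 0.177, edgeR), and to KRT9, which had counts in OV2008 and C13 only (2.04, SE 0.609, adjusted p = 0.198, edgeR). The members took 84.0% to 97.4% of all keratin counts in each library. Keratin pseudogenes, which share sequence with the members, held 0.208% to 1.75% as many counts as the members.

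Vimentin (VIM), the type III filament protein of mesenchymal cells, was lowest in the OV2008 family, as KRT7 was. Like KRT8 and KRT18, it was higher in the HeyA8 than in the SK-OV-3 family. It measured 7916 to 11923 CPM in the HeyA8 family and 1187 to 2164 CPM in the SK-OV-3 family, and 4, 23, 59 and 51 counts in OV2008 vehicle, OV2008 QC, C13 vehicle and C13 QC (adjusted p = 0.00260, edgeR F test). Per kilobase, vimentin was above the 4 simple keratins together in all 4 HeyA8 family libraries and in 3 of the 4 SK-OV-3 family libraries, SK-OV-3 QC being the exception at 551 against 632 CPM per kilobase. NEFL, a neurofilament chain, had 471 to 1219 counts in the OV2008 family and 0 in the 8 other libraries. Of the 13 intermediate filament genes on the list, VIM and NEFL included, 9 passed the filter and 5 differed between families, against 23.1% of all genes. NEFL passed the filter through the OV2008 family, so that count is a description.

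The desmosome, hemidesmosome and plakin genes anchor keratins at the membrane. Of 19 such genes, 17 were tested and 12 differed between families, against 23.1% of all genes. Against the HeyA8 family the OV2008 family was higher in 10 and lower in 0 (10.5% of all genes called), and against the SK-OV-3 family higher in 7 and lower in 0 (15.9%). JUP (plakoglobin) had 494 to 974 CPM in the OV2008 family, 161 to 193 in the SK-OV-3 family and 0 to 4 counts in the HeyA8 family (adjusted p = 0.00198, edgeR F test). PKP1 (plakophilin 1), a desmosomal plaque protein of squamous epithelia, had 1695 to 3386 counts in the OV2008 family and 0 to 14 elsewhere, and so it passed the filter through that family, as some others of the list did. These counts are therefore a description.

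Among 16 regulators of epithelial and keratin genes, all tested, 13 differed between families, against 23.1% of all genes. The directions were mixed. The OV2008 family was higher in 9 and lower in 2 (ZEB1 and ZEB2) against the HeyA8 family (10.5% of all genes called). It was higher in 7 and lower in 1 (ZEB1) against the SK-OV-3 family (15.9%). ZEB1 and ZEB2 were named after their values were seen. ELF3, an epithelial ETS factor, was at 50.5 to 123 CPM in the SK-OV-3 and OV2008 families and at 0 to 2 counts in the HeyA8 family (adjusted p = 0.00113, edgeR F test). GRHL2, a grainyhead factor of epithelial junction genes, measured 88.3 to 103 CPM in the OV2008 family and 0 to 2 counts elsewhere. TP63, the basal squamous factor of the p53 family, was named after its values were seen. It had 315, 329, 108 and 138 CPM in OV2008 vehicle, OV2008 QC, C13 vehicle and C13 QC, and at most 4 counts elsewhere. Both passed the filter on low counts through the OV2008 family, so that they are among the 13 is no support. SK-OV-3-TR, which had KRT5 and KRT6A counts, had 4 and 0 TP63 counts and 2 and 0 GRHL2 counts.

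The labelled tissue was checked against marker lists, and of 9 ovarian markers tested 4 differed between families, against 23.1% of all genes. PAX8, the Müllerian lineage factor, stood at 234 to 480 CPM in the HeyA8 and SK-OV-3 families and at 7.56 to 24.8 CPM in the OV2008 family (adjusted p = 0.00570, edgeR F test). SOX17 had 126 to 2402 counts in the former 8 libraries and 0, 0, 0 and 2 in OV2008 and C13 (adjusted p = 0.00271, edgeR F test). Over the 10 ovarian markers the summed level was 316 to 477 CPM in the HeyA8 family, 735 to 1616 in the SK-OV-3 family and 88.2 to 98.8 in the OV2008 family. Outside the OV2008 family PAX8 and MECOM made up most of that sum, at 380 and 79.6 CPM in HeyA8 vehicle. In OV2008 and C13 these defining markers of the labelled tissue were thus absent or low, so the ovarian label of that family is not borne out by them and the family is called by its line names only. The 8 general epithelial markers summed to 1.82 to 5.45 CPM in the HeyA8 family, 44.9 to 208 in the SK-OV-3 family and 1116 to 1244 in the OV2008 family. Of these, 8 of 8 differed between families (23.1% of all genes), led by ST14 and RAB25. In the HeyA8 family 7 of these 8 were under 10 counts in at least 1 library. RAB25 had 0 to 2 counts outside the OV2008 family and passed the filter through that family, so the epithelial count is a description.

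Markers of squamous differentiation summed to 67.6 to 181 CPM in the HeyA8 family, 42.4 to 284 in the SK-OV-3 family and 1775 to 2402 in the OV2008 family. Most of the OV2008 family sum came from SFN and S100A2, at 536 and 1205 CPM in OV2008 vehicle and 1393 and 874 in C13 vehicle. IVL was at most 1.66 CPM in that family. SBSN had 0 to 14 counts there and 24 to 60 in the HeyA8 family. SFN, IVL and SBSN were named after their values were seen. Of the 16 genes, 9 were tested and 8 differed between families (23.1% of all genes), led by LY6D and S100A2. LY6D had 0 to 2 counts outside the OV2008 family and passed the filter through that family, as some others of the list did. The count is therefore a description. S100A2 was also the marker that stood out in SK-OV-3-TR, with 4198 and 4744 counts against 574 and 624 in SK-OV-3. Leukocyte markers summed to at most 1.61 CPM, fibroblast markers to at most 42.9 CPM and mesothelial markers to at most 49.2 CPM. Of their tested genes 0 of 1, 0 of 2 and 1 of 3 (UPK3B) differed between families by edgeR, against 23.1% of all genes. At an unadjusted p under 0.05 there were 0, 0 and 3, against 40.9% of all genes. Endothelial markers summed to 97.9 to 179 CPM in the HeyA8 family, nearly all of it CDH5, and to at most 14.8 CPM in the others. Of these genes 2 of 3 differed (23.1% of all genes). Counts on so few genes are a description. The epithelial, squamous and ovarian lists differed between the families that the keratins also separated, and their part in the keratin values was not tested.

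Across the 12 libraries the patterns most like the members were found by Pearson's r of log2 CPM over all tested genes with a symbol, as a description, since libraries of a family and of a line resemble each other. KRT8 was most like KRT18 (r = 0.986), then DOLPP1 and the pseudogene KRT8P36. KRT5 was most like BMP7 (r = 0.995), S100A2 and HOXA11, and KRT17 most like SOX2 (r = 0.991), TTC22 and S100A9. KRT13 was most like EFS (r = 0.989), KRT14 and PKP1, and KRT14 most like SPINK5 (r = 0.994), GALC and KRT13. KRT6A was most like HOPX (r = 0.993), GALC and RYR1. KRT19 was most like VIPR1 (r = 0.994), TMC4 and HR, and KRT18 most like FAM174C (r = 0.988), KRT8 and MAP3K14. KRT7, the member that ran against the others, was most like PXDN (r = 0.991) and GNG11, and its r was -0.960 with KRT13, the lowest between any 2 members.

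KRT8, on the minus strand of chromosome 12, and KRT18, on its plus strand, overlap at their ends in the GENCODE annotation on GRCh37. The strand setting of the counting was not given, so reads of the shared stretch may not be told apart. KRT6A shares near-identical sequence with KRT6B and KRT6C, which held at most 27 and 10 counts in any library, and how such reads were split is uncertain.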

How the data were processed

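The authors deposited raw read counts per gene for 12 libraries, with versioned Ensembl identifiers. The submitters' processing notes name STAR 2.7.3a, HTSeq 0.6.1p1 and GRCh38.p13, while the published methods name another aligner and an older build. The annotation release and strand setting were not given in the sources used here. Of 60669 identifiers, 58620 were matched to a symbol without their version, and those without one held 0.132% of all counts.

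From the deposited counts, edgeR 4.0.16 (R 4.3.3) kept 18720 genes (filterByExpr, about 10 counts in at least 3 libraries and 15 in total), scaled them by TMM and ran quasi-likelihood tests with Benjamini-Hochberg adjustment over all genes. Families were tested on the 6 vehicle libraries (3 residual degrees of freedom), resistance on the same libraries with family as a block (2), and QC on 12 libraries with cell line as a block (4, or 5 for a single effect). The block follows the labels, since both libraries of a pair come from the same line, and their deviations correlated at 0.893 to 0.929. P-values measure the spread between lines, as there was 1 culture a line, and in the family tests only that between a parent and its derivative. DESeq2 1.42.0, other scalings, filters and left-out lines were tried. CPM per kilobase used the Ensembl canonical transcript length (18488 genes). Log2 differences used a prior count of 2. Each test was tested on simulated data. Figures were drawn with matplotlib 3.10.9.

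The 10 keratins and all gene lists were chosen with earlier results of these data known. Named genes were the members, the 3 genes most like each (some are not reported here), VIM, and the 2 genes of each list with the smallest p, with exceptions stated where they occur.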

Additional observations from a re-analysis of the deposited data

Results flagged for a closer look

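Some keratins differed in opposite directions between resistant and sensitive lines of different families, in vehicle and QC libraries alike. Each difference between families rests on 1 pair of lines a family and was not tested. The ratio of resistant to sensitive CPM in vehicle libraries was at least 394 in the SK-OV-3 family and 0.273 in the OV2008 family for KRT5, and at least 14.1 and 0.0483 for KRT6A. For KRT15 it was 16.8 in the SK-OV-3 family, 0.949 in the HeyA8 family and 0.255 in the OV2008 family. For KRT17 it was 1.41 in the SK-OV-3 family, from 6 and 12 counts, and 0.310 in the OV2008 family. The simple pair was higher in the resistant line of the HeyA8 family, with 1.23 for KRT8 and 1.19 for KRT18, against 0.580 and 0.596 in the OV2008 family and 0.649 for KRT8 in the SK-OV-3 family.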

How the results depend on the processing

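The count of keratins that differed between families was 10 with both other scalings, with no filter, with QC libraries in place of vehicle libraries and with both summed, and 9 with DESeq2 (KRT5 missed, adjusted p = 0.0934). It was 3 (KRT7, KRT8 and KRT18) with at least 10 counts in every library, where only 3 members could be tested. With each line left out in turn it ran from 5 to 10: 10 without SK-OV-3 or SK-OV-3-TR, 7 without HeyA8, HeyA8-MDR or C13, and 5 without OV2008, when KRT13, KRT14, KRT17, KRT18 and KRT19 still passed. The lone line of that family is then assumed to vary like the other families. The counts for resistance and QC stayed at 0 in the fits that left out a line, with other scalings, and with no replicate block, where 0 members passed in each of the 5 comparisons. With no expression filter 1 member passed for resistance (KRT13), 1 for QC in sensitive lines (KRT13) and 2 for QC over 6 lines (KRT6A, adjusted p = 0.00235, and KRT14, adjusted p = 0.00572, edgeR). That unfiltered fit also gave KRT5 a family adjusted p of 5.74e-195, against 0.0291 in the report (edgeR). DESeq2 called 1 for QC over 6 lines (KRT6A, adjusted p = 0.0364). The cause was not tested. The estimate for KRT7 between the SK-OV-3 and HeyA8 families, -0.12, was 0.19 by library size, and with a line left out it ran from -0.92 (SK-OV-3-TR) through 0.08 (HeyA8-MDR left out) to 0.40 (SK-OV-3). The squamous to simple ratio had family medians that moved by less than 1 SD of the family's 4 libraries when KRT7 or KRT19 was left out or CPM replaced CPM per kilobase. Depth limits the squamous keratins outside the OV2008 family, most of which had fewer than 10 counts. With 1 library for each line and treatment, the resistance test recovered 16.7% of 4-fold changes simulated in genes with ample mean counts.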
